A study of Rattus norvegicus with 36 samples.

Results

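The loci of Fos, Bdnf and Nr4a1, activity-regulated genes long known as targets of CREB, were examined for binding of CREB phosphorylated by kinase signalling (pCREB) and of the glucocorticoid receptor (GR) in rat hippocampus. All listed binding regions of either antibody were taken whose start lay inside 1 of 3 windows of the rat genome build rn6: chr6:109250000-109350000 for Fos, chr3:100720000-100870000 for Bdnf and chr7:142850000-142970000 for Nr4a1. This gave 11 of the 20029 regions of the series: 3 of 5307 GR regions and 8 of 14722 pCREB regions. The Fos window held 5 of them, the Nr4a1 window held 6 and the Bdnf window held 0. Gene models of rn6 were not used here, so a region bears the name of its window, not of a gene it was shown to serve. By gene order in RefSeq's GRCr8 annotation, the nearest protein-coding neighbours are Tmed10 and Jdp2 for Fos, Kif18a and Lin7c for Bdnf, and Tamalin and Atg101 for Nr4a1.

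The samples were ChIP-seq libraries from the hippocampus of male Sprague-Dawley rats with or without training that were given either vehicle or corticosterone, a steroid of the adrenal cortex and the ligand of GR in rats. For each antibody there were 4 libraries (A to D) in each of 4 conditions: untrained vehicle, untrained corticosterone, trained vehicle and trained corticosterone. Each library was made from pooled chromatin of 4 hippocampi from 2 rats, and each pool was divided between both antibodies. The sources used here do not give the dose, the kind of training, the time of sampling or the age of the rats.

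CREB binds the cAMP response element, and its phosphorylation after synaptic activity and calcium entry favours recruitment of coactivators. Fos encodes a subunit of the transcription factor AP-1, Nr4a1 an orphan nuclear receptor of the immediate early class, and Bdnf a neurotrophin that acts on synapses through the receptor TrkB. GR is held in the cytoplasm until it binds hormone and then acts in the nucleus, at its own response elements or together with other factors.

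The RefSeq table of promoters (build GRCr8) matched 2 of the 3 genes, with 1 start site for Nr4a1 and 6 for Bdnf. Upstream sequences are shown for Nr4a1, whose window held the most pCREB regions of the 3, and for the single Bdnf start site that carried the CREB core letters, from the window with no region. Both lie on the plus strand, of chromosomes 7 and 3, and are the 250 bases before the start, written 5′ to 3′. Capitals mark the core TGACG or its reverse complement.

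Nr4a1: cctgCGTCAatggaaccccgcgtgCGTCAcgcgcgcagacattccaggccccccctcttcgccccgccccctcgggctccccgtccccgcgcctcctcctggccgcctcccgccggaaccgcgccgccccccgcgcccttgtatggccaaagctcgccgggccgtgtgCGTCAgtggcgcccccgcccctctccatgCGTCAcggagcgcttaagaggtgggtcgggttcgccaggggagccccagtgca

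Bdnf, start site 4: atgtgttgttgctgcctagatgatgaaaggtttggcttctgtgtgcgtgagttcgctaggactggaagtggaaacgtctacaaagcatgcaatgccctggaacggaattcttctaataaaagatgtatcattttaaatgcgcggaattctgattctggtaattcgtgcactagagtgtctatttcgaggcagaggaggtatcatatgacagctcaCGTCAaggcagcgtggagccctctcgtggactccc

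The Nr4a1 stretch held 4 copies of the core, those nearest to the start at positions -53 to -49 and -82 to -78, and the Bdnf stretch held 1, at -35 to -31, where -1 is the last base before the start. Of all 33469 RefSeq stretches of this length, 18.2% held the core on either strand. The full site TGACGTCA, which contains the core, was in neither stretch and in 1.59% of all. The palindromic GR element, AGAACA and TGTTCT with 3 bases between them, was also in neither (0.012% of all), nor was the AP-1 site TGANTCA (6.34%). These matches describe letters only. Their place in rn6 relative to the regions was not determined.

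Each binding region is called by its window, antibody and order along the chromosome. Fos pCREB regions 1, 2 and 3 are chr6:109261983-109262697, chr6:109299924-109300619 and chr6:109326872-109327175. Fos GR region 1 is chr6:109262357-109262631 and lies inside Fos pCREB region 1. Fos GR region 2 is chr6:109291550-109291822 and overlapped no pCREB region, unlike 80.1% of the GR regions of the series. Its centre was 8.6 kb from that of Fos pCREB region 2 and 29.3 kb from that of Fos pCREB region 1. Nr4a1 pCREB regions 1 to 5 are chr7:142858106-142858508, chr7:142890710-142891583, chr7:142911808-142912478, chr7:142948364-142948635 and chr7:142962423-142962725. Nr4a1 GR region 1 is chr7:142858145-142858471 and lies inside Nr4a1 pCREB region 1. Thus both windows held a GR region within a pCREB region, and the Fos window held a further GR region outside any.

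Clusters of pCREB regions as dense as these were uncommon on their chromosomes. When chromosome 7 was divided into 1209 stretches of 120 kb, the length of the Nr4a1 window, 1.16% held 5 or more pCREB regions, and of 1468 stretches of 100 kb on chromosome 6, 4.16% held 3 or more. Most of these stretches held no pCREB region at all, 61.5% on chromosome 7 and 67.2% on chromosome 6. The windows were placed at chosen genes, while the stretches ran along the chromosome without regard to genes. The shares are therefore not a comparison with other gene loci. The empty Bdnf window was the usual case by the same measure: 58.1% of 1182 stretches of 150 kb on chromosome 3 held no pCREB region and 79.4% no GR region. The nearest regions to the Bdnf window were a pCREB region at chr3:101010580-101011275, 140.6 kb after its end, and a GR region at chr3:101052212-101052448, 182.2 kb after it. Since every listed region has peak calls in 3 or more libraries of 1 condition, an empty window does not show absence of binding, and no counts at Bdnf were analysed here. The Fos window was cut just beside a further overlapping pair: a GR region at chr6:109248176-109248976 (15 to 54 reads per library, median 27) began 1.82 kb before it and a pCREB region at chr6:109248220-109248980 (7 to 69 reads, median 42) began 1.78 kb before it. The first region inside, Fos pCREB region 1, began 12 kb after the edge and held 14 to 99 reads (median 64).

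**Figure D1:**
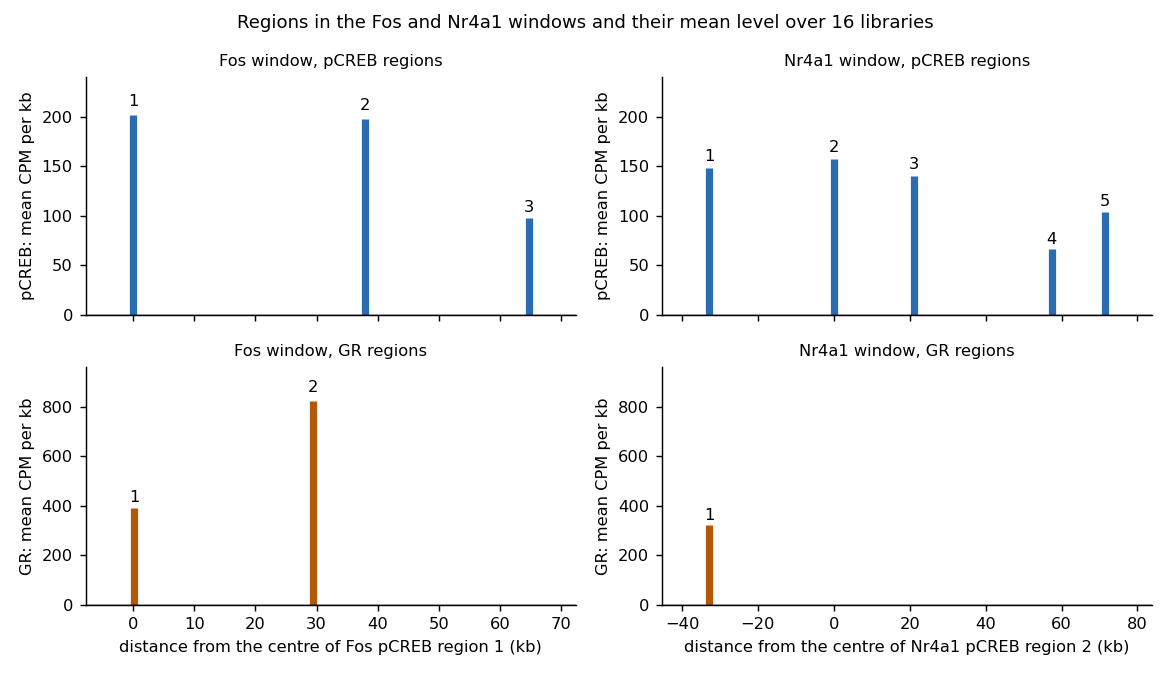
Regions of the Fos window (left) and the Nr4a1 window (right) for pCREB (top) and GR (bottom), placed by distance in kb from the centre of the leading pCREB region; the height is the mean of 16 libraries in normalized CPM (reads scaled to a common library total) per kb of region width, and numbers give the order along the chromosome. Fos GR region 2, at 822 CPM per kb, stands 29.3 kb from Fos pCREB region 1 with no pCREB region at its place. GR and pCREB levels are relative to different libraries and are not on a common scale.

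The counts behind these regions were small. GR libraries held 55254 to 173176 reads in all their regions and pCREB libraries 143219 to 562249. An uneven part of the GR reads lay in mitochondrial regions. It was 27722 of 120812 reads in GR untrained corticosterone B and 11426 of 149254 in GR trained corticosterone B. Values below are normalized CPM, taken over the tested regions of a library after TMM scaling, which evens out the libraries by their trimmed mean ratios. Libraries A and B of GR untrained vehicle and B of GR untrained corticosterone had the fewest peak calls of their antibody, as did A of pCREB untrained vehicle and A of pCREB trained corticosterone. The count table gives no expression of marker genes, so that the tissue could not be checked against its markers, and a change in the share of cells with a bound site cannot be told apart from one in binding per cell. Conditions were sequenced in separate lanes and cannot be told apart from them.

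Of the 3 GR regions, Fos GR region 2 had the highest level. It averaged 822 CPM per kb over the 16 libraries, above 96.3% of 4968 tested GR regions. A peak was called there in 2 of 4 untrained vehicle libraries, 4 of 4 untrained corticosterone, 1 of 4 trained vehicle and 4 of 4 trained corticosterone libraries. It therefore met the listing rule, calls in 3 or more libraries of 1 condition, only through the corticosterone conditions. A higher level there is partly fixed by the listing, and the comparisons of treatments at this region below are a description, not independent support. In trained vehicle rats its level was 163, 73.4, 49.1 and 76.3 CPM in libraries A to D (mean 90.4 ± 49.9, SD, n = 4). In trained corticosterone rats it was 341, 312, 171 and 228 CPM (mean 263 ± 78). Every trained corticosterone library lay above every trained vehicle library, as at 3.34% of the tested GR regions, all of which passed the same listing rule. Of the 3 GR regions it was the only one with such a separation. Over both training states together the treatments overlapped at all 3. Every corticosterone library lay above every vehicle library at 0.322% of all tested GR regions, and the opposite order was not counted over all.

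In untrained rats the groups overlapped. Vehicle libraries stood at 110, 404, 47.7 and 250 CPM (mean 203 ± 158, SD, n = 4), and corticosterone libraries at 386, 260, 261 and 458 CPM (mean 341 ± 97.5). The high vehicle value, in library B, rested on 17 reads in the shallowest GR library, with a 95% exact Clopper-Pearson interval of 235 to 646 CPM that covers counting error only. Library C, the lowest, held 6 reads (17.5 to 104 CPM). These libraries were also the extremes over other strongly bound regions: the median deviation from the 16-library mean of the 994 most strongly bound GR regions was 0.63 on the log2 scale in untrained vehicle B, the highest of 16, and -0.49 in untrained vehicle C, the lowest. The part of this in the result was not tested.

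Averaged over trained and untrained rats, at this region listed through its corticosterone calls, corticosterone libraries held 2.34 times the GR signal of vehicle libraries (log2 fold change 1.23, SE 0.32, unadjusted 95% interval 0.55 to 1.91). This missed the threshold narrowly, with an adjusted p of 0.0628 in edgeR's quasi-likelihood test (unadjusted 0.0013, place 103 of 4968). Thus edgeR called 0 of the 3 GR regions for corticosterone, where it called 1.67% of all GR regions (1.65% with more signal under corticosterone), and 1 of the 3 had an unadjusted p under 0.05, as did 619 of all 4968. DESeq2 called this region (adjusted p 0.0424), with 102 GR regions called in all against 83 by edgeR. So did edgeR with scaling by total count (0.0061, 125 called in all) and without the 3 GR libraries with the fewest peak calls (0.0203, 199 of 5158 called, chosen after seeing the data). Of 16 edgeR fits without 1 library, 3 called it: those without untrained vehicle B (0.00351, 335 called in all), trained vehicle A (0.0291, 79 called) or untrained corticosterone C (0.0441, 150 called). The other 13 gave adjusted p from 0.0536 to 0.164. A fit of all libraries with the replicate letter as a block, described at the end, also called Fos GR region 2. Over all 23 alternatives the log2 fold change stayed between 1.04 and 1.49 and the adjusted p between 0.00351 and 0.164.

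Within each training state the estimates were 0.95 on the log2 scale in untrained rats (SE 0.45, adjusted p 0.48 by edgeR, 0.302% of GR regions called) and 1.51 in trained rats (SE 0.47, adjusted p 0.365 by edgeR, 0.121% called). The test of their difference, the interaction, gave 0.56 (SE 0.65, 95% interval -0.81 to 1.93, adjusted p 1 by edgeR), so that neither an equal nor a 2-fold larger response in trained rats was outside the interval. Leaving out 1 library moved it between 0.12 (without untrained vehicle B) and 1.05 (without trained vehicle A), with 0.31 without untrained vehicle D, 0.34 without trained vehicle C and 0.99 without untrained vehicle C, and it was 0.11 without the 3 libraries with the fewest peak calls. Trained libraries had a median of 167 CPM (range 49.1 to 341, n = 8) and untrained libraries one of 261 CPM (47.7 to 458, n = 8), with a log2 fold change of -0.68 (SE 0.33, adjusted p 0.985 by edgeR).

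**Figure D2:**
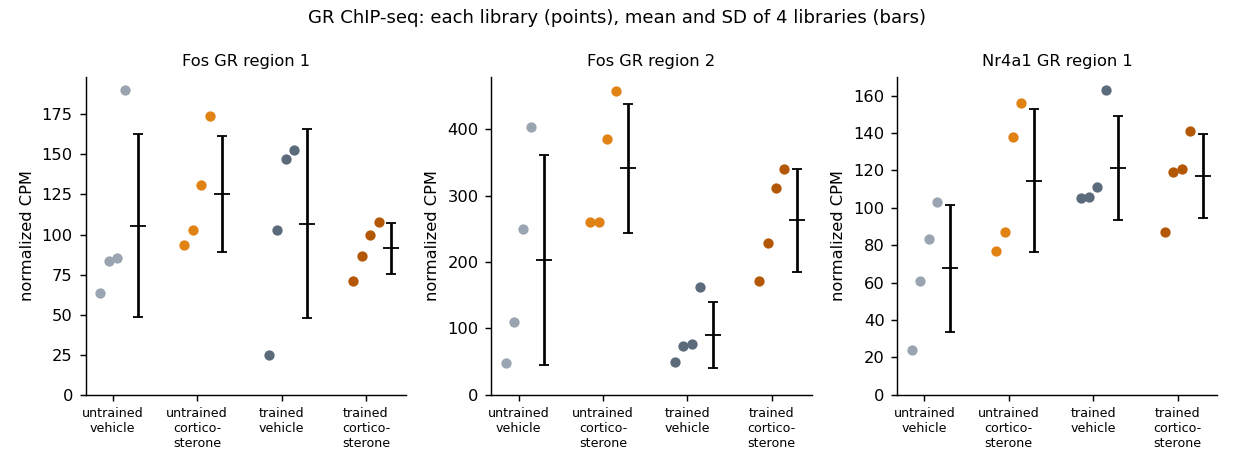
Normalized CPM of the 3 GR regions in each library (points) by condition, with the mean and SD of 4 libraries (bars to the right). At Fos GR region 2 the trained corticosterone libraries (171 to 341 CPM) lie above the trained vehicle libraries (49.1 to 163 CPM), while untrained vehicle libraries spread from 47.7 to 404 CPM.

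The GR regions inside pCREB regions gave smaller corticosterone estimates than Fos GR region 2. Fos GR region 1 held 3 to 24 reads per library and averaged 390 CPM per kb, above 77.2% of tested GR regions. Peaks were called in 0 untrained vehicle, 2 untrained corticosterone, 3 trained vehicle and 3 trained corticosterone libraries. The region was thus listed only through the trained conditions, and a comparison by training there is a description. Its level was 106 ± 57.1 CPM in untrained vehicle, 125 ± 36.3 in untrained corticosterone, 107 ± 59.1 in trained vehicle and 91.4 ± 16.1 in trained corticosterone libraries (SD, n = 4 each). All 4 groups overlapped, and the corticosterone log2 fold change was 0.13 (SE 0.29, 95% interval -0.47 to 0.73, adjusted p 0.883 by edgeR). Leaving out 1 library moved it between -0.03 and 0.3. The interaction estimate of Fos GR region 1 was -0.62 (SE 0.58, 95% interval -1.83 to 0.58).

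Nr4a1 GR region 1, the GR region of the Nr4a1 window, held 1 to 19 reads and averaged 322 CPM per kb, above 57.7% of tested GR regions. Untrained vehicle libraries were at 60.9, 23.7, 103 and 83.4 CPM, and untrained corticosterone libraries at 77.1, 156, 87.1 and 138 CPM. Trained vehicle libraries were at 111, 105, 106 and 163 CPM, and trained corticosterone libraries at 141, 119, 121 and 86.8 CPM. The lowest group was untrained vehicle, which overlapped both corticosterone groups and ended at 103 CPM, just under the lowest trained vehicle library at 105 CPM (a separation found at 1.55% of tested GR regions). Peaks were called in 1, 2, 3 and 4 of the 4 libraries of untrained vehicle, untrained corticosterone, trained vehicle and trained corticosterone, so the region was listed only through the trained conditions, and this separation is a description. The training estimate was 0.34 (SE 0.25, 95% interval -0.17 to 0.85, adjusted p 0.985 by edgeR). The corticosterone estimate was 0.26 (SE 0.25, adjusted p 0.718 by edgeR) and the interaction -0.64 (SE 0.49, 95% interval -1.66 to 0.37, adjusted p 1 by edgeR), the interaction with the smallest p of the 3 regions. For training edgeR called 0 of the 3 GR regions and 0% of all GR regions, and 0 of the 3 had an unadjusted p under 0.05, against 178 of all 4968. The interaction likewise called 0 of 3 and 0% of all, with 0 of 3 and 184 of all at an unadjusted p under 0.05. DESeq2 called 0 of the 3 for either, and 1 of all GR regions for training and 0 for the interaction.

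The pCREB regions covered a wide range of levels, from 202 down to 66.7 CPM per kb. Fos pCREB regions 1 and 2 averaged 202 and 198 CPM per kb, above 94.4% and 94.1% of 14553 tested pCREB regions, and each had a peak call in 15 of 16 libraries. Nr4a1 pCREB regions 2, 1 and 3 followed with 157, 148 and 140 CPM per kb (88.5%, 86.4% and 83.4%) and calls in 14, 14 and 13 libraries. Nr4a1 pCREB region 5 and Fos pCREB region 3 stood near the middle of the list with 104 and 98.1 CPM per kb (55.1% and 45.8%), and Nr4a1 pCREB region 4 near its bottom with 66.7 (2.29%) and calls in 5 libraries.

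Fos pCREB region 1 was the leading region of its window. Its level was 174, 155, 180 and 135 CPM in untrained vehicle libraries A to D and 162, 169, 151 and 127 CPM in untrained corticosterone libraries. Trained vehicle libraries stood at 188, 180, 103 and 123 CPM and trained corticosterone libraries at 112, 125, 77.6 and 154 CPM. Trained corticosterone had the lowest mean, 117 ± 31.9 CPM against 148 ± 41.9 to 161 ± 20.2 in the other 3 conditions (SD, n = 4), but overlapped all of them. The corticosterone log2 fold change was -0.20 (SE 0.23, 95% interval -0.66 to 0.26, adjusted p 0.873) and that for training -0.24 (SE 0.23, -0.7 to 0.22, adjusted p 1), both by edgeR.

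Fos pCREB region 2 is the pCREB region nearest to Fos GR region 2. Untrained vehicle libraries were at 59.4, 212, 117 and 138 CPM and untrained corticosterone libraries at 149, 132, 117 and 107 CPM. Trained vehicle libraries were at 176, 253, 91.6 and 78.9 CPM and trained corticosterone libraries at 183, 141, 83.1 and 165 CPM. The vehicle groups were the more spread, and all 4 conditions overlapped. The corticosterone estimate was -0.09 (95% interval -0.63 to 0.45, adjusted p 0.962 by edgeR), and 0.02 with scaling by total count. The difference from the GR estimate of 1.23 at Fos GR region 2, 8.6 kb away, was not tested.

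**Figure D3:**
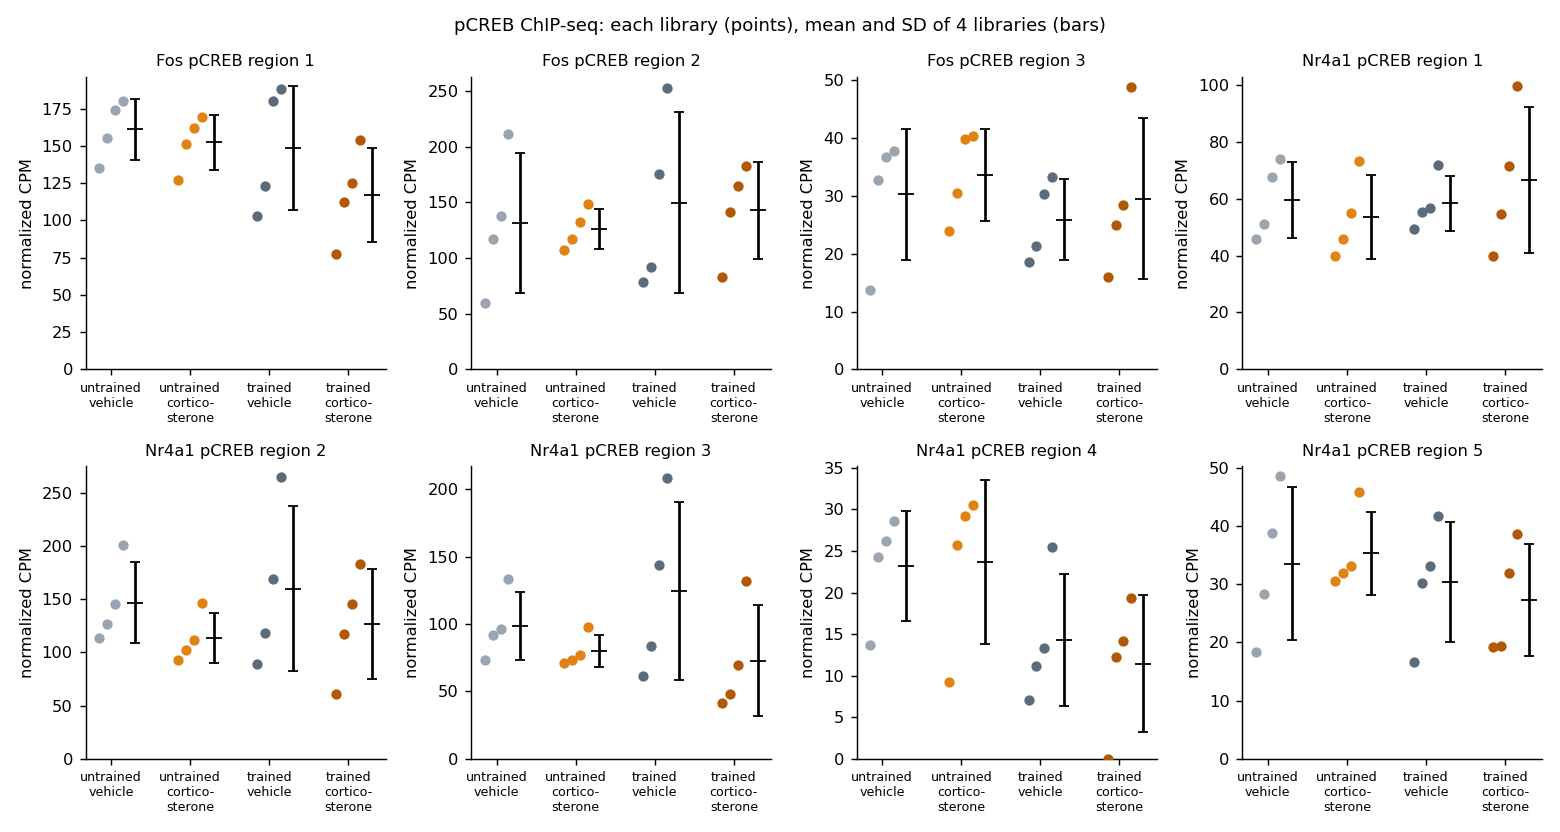
Normalized CPM of the 8 pCREB regions in each library (points) by condition, with the mean and SD of 4 libraries (bars to the right). The conditions overlap in each panel, and at Fos pCREB region 2 and Nr4a1 pCREB regions 2 and 3 a single trained vehicle library is highest, with 253, 265 and 208 CPM.

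In the Nr4a1 window the leading region was Nr4a1 pCREB region 2. Vehicle libraries were at 146, 201, 127 and 114 CPM without training and 169, 265, 88.8 and 118 CPM with it. Corticosterone libraries were at 147, 112, 92.9 and 102 CPM without training and 183, 117, 61 and 146 CPM with it. Corticosterone libraries had the lower mean in both training states. In untrained rats 3 of the 4 corticosterone libraries lay below the lowest vehicle library and the other was inside the vehicle range, and in trained rats 1 of the 4 lay below it. The log2 fold change was -0.38 (SE 0.26, 95% interval -0.89 to 0.14, adjusted p 0.84 by edgeR).

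Nr4a1 pCREB region 3 had the smallest p for corticosterone of the 8 pCREB regions. Untrained libraries stood at 73.1, 133, 96.2 and 91.9 CPM with vehicle and 97.4, 73.5, 77 and 71.2 CPM with corticosterone. Trained libraries stood at 144, 208, 61.1 and 83.5 CPM with vehicle and 47.8, 69.7, 41.6 and 132 CPM with corticosterone. The means were 111 ± 48.3 CPM with vehicle and 76.3 ± 28.4 CPM with corticosterone (SD, n = 8 each), and libraries of both treatments overlapped in each training state. The log2 fold change was -0.51 (SE 0.25, 95% interval -1.02 to -0.01, unadjusted p 0.0469 and adjusted p 0.84 by edgeR), which did not pass.

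Trained vehicle B held the highest value of the 16 libraries at Fos pCREB region 2 and at Nr4a1 pCREB regions 2 and 3. The same library was highest over the 2911 most strongly bound pCREB regions, with a median deviation of 0.52 on the log2 scale. Trained corticosterone C held the lowest value at Fos pCREB region 1 and at Nr4a1 pCREB regions 2 and 3. At Nr4a1 pCREB region 1 it held the highest. Over the same 2911 regions it was the lowest library, with a median deviation of -0.39. The part of either library in the values of these regions was not tested.

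The remaining pCREB regions had lower counts or smaller estimates. Nr4a1 pCREB region 1, the one that contains a GR region, stood at 45.7, 74.2, 51.1 and 67.6 CPM in untrained vehicle and 55.1, 73.5, 39.8 and 45.8 CPM in untrained corticosterone libraries. It stood at 49.3, 56.8, 55.5 and 71.9 CPM in trained vehicle and 39.9, 71.5, 99.8 and 54.8 CPM in trained corticosterone libraries, so that all 4 conditions overlapped around means of 53.6 to 66.5 CPM. It had a corticosterone estimate of 0.05 (95% interval -0.34 to 0.44, adjusted p 0.971 by edgeR). Its interaction estimate, 0.41 (SE 0.39, adjusted p 0.999 by edgeR), had the smallest p of the 8. Fos pCREB region 3 averaged 25.9 to 33.7 CPM and Nr4a1 pCREB region 5 averaged 27.3 to 35.3 CPM over the conditions, with corticosterone estimates of 0.21 and -0.10. The latter was 0.0011 with scaling by total count. Fos pCREB region 3 had calls in 3 untrained vehicle, 3 untrained corticosterone, 2 trained vehicle and 1 trained corticosterone libraries. It was thus listed only through the untrained conditions, and a comparison by training there is a description.

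Nr4a1 pCREB region 4 had the smallest p for training. Untrained libraries were at 13.7, 26.2, 28.6 and 24.3 CPM with vehicle and 25.7, 9.18, 29.2 and 30.5 CPM with corticosterone. Trained libraries were at 13.3, 7.1, 11.1 and 25.5 CPM with vehicle and 0, 12.2, 19.4 and 14.2 CPM with corticosterone. The 0 is of a library in which 3 reads, the limit that a count of 0 allows, would equal 23.9 CPM. Trained libraries were lower on average (12.9 ± 7.63 against 23.4 ± 7.76 CPM, SD, n = 8 each) and overlapped the untrained ones, on 0 to 14 reads per library. Peaks were called in 1 untrained vehicle, 3 untrained corticosterone, 1 trained vehicle and 0 trained corticosterone libraries, so the region was listed only through an untrained condition, and a higher untrained level is partly fixed by the listing. The log2 fold change was -0.76 (SE 0.31, 95% interval -1.38 to -0.13, unadjusted p 0.0192 and adjusted p 1 by edgeR).

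No pCREB region of the 3 windows passed any test. At 0 of the 8 did every corticosterone library lie above every vehicle library, over all rats (0.00687% of pCREB regions) or over trained rats (1.44%). The opposite order over all rats was also found at 0 of the 8, and its share of all pCREB regions was not counted. For corticosterone edgeR called 0 of 8 and 0% of all pCREB regions, with 1 of the 8 at an unadjusted p under 0.05 and 709 of all 14553. For training it called 0 of 8 and 0% of all, again with 1 of the 8 at an unadjusted p under 0.05 and 417 of all, and for the interaction 0 of 8 and 0% of all, with 0 of the 8 and 480 of all. DESeq2 called 0 of the 8 in each, and of all pCREB regions 2 for training and 0 for corticosterone and the interaction. The median log2 fold change of the 8 was -0.10 for corticosterone and -0.02 for training, beside -0.003 and 0.019 over all tested pCREB regions. Corticosterone estimates were below 0 at 6 of the 8, of which 3 (Fos region 2, Nr4a1 regions 4 and 5) turned positive with scaling by total count. The interaction estimates spanned -0.39 to 0.41. The 95% intervals of the 8 corticosterone estimates lay between -1.02 and 0.68.

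**Figure D4:**
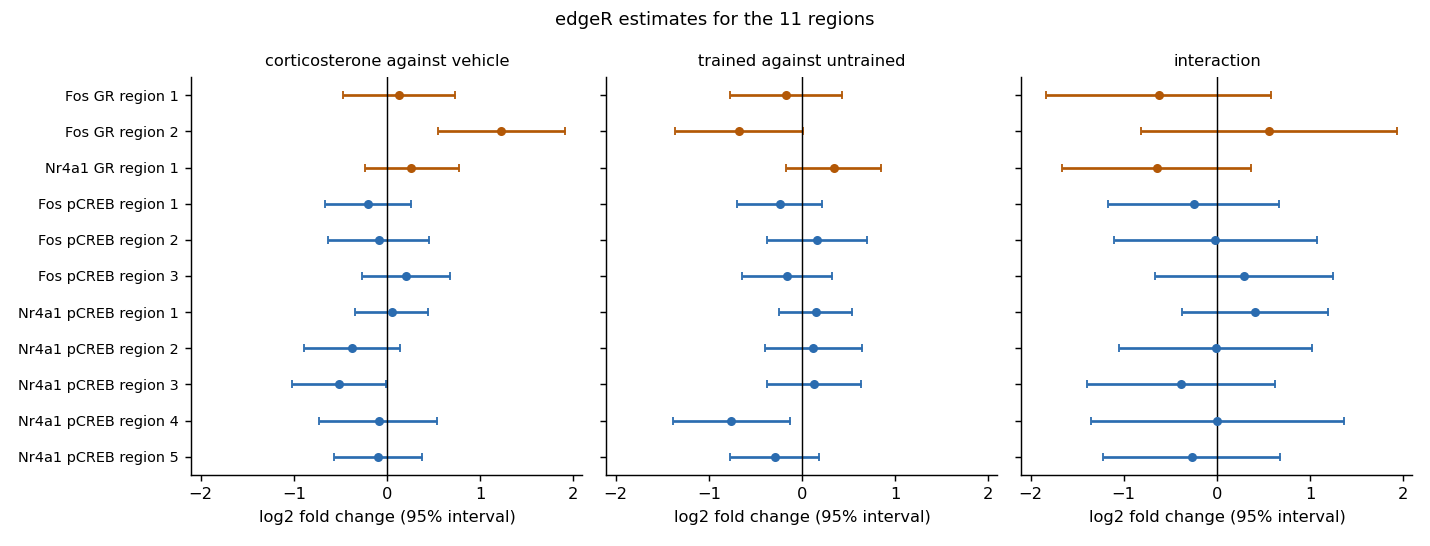
Log2 fold changes (points) with unadjusted 95% intervals (bars) from edgeR for the 3 GR regions (brown) and 8 pCREB regions (blue): corticosterone against vehicle averaged over training, trained against untrained averaged over treatment, and their interaction. For corticosterone Fos GR region 2 (1.23, interval 0.55 to 1.91) is the only one whose interval lies above 0; Nr4a1 pCREB region 3 for corticosterone (upper end -0.01) and Nr4a1 pCREB region 4 for training (upper end -0.13) are the ones whose intervals lie below 0. None passed after adjustment.

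Regions elsewhere in the genome with the most similar pattern over the 16 libraries were found by the root mean square difference of log2 CPM, each region centred on its own mean. For Fos GR region 2 they were a region on an unplaced contig (0.34) and chr5:138093414-138094103 (0.36), where the median over 4959 GR regions was 1.07. For Nr4a1 GR region 1 they were chr10:9319003-9319569 (0.29) and chr9:13225993-13226593 (0.3), with a median of 0.66. For Fos pCREB region 1 they were chr1:192088564-192089155 (0.16) and chr16:81433508-81434138 (0.18), with a median of 0.52 over 14531 regions. For Nr4a1 pCREB region 2 they were chr6:80152852-80153487 (0.13) and chr5:153184630-153185873 (0.17), with a median of 0.65. All points of such a comparison share the libraries and their depth, and deeper regions vary less.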

How the data were processed

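The authors used build rn6 and HTSeq 0.6.1-1, bedtools 2.26.0, BWA 0.7.10 and MACS2 2.1.1.20160309, per the submitters' processing notes. The sources used here do not give settings. The table as deposited holds whole-number counts of reads, not normalized, in a list of GR regions and another of pCREB regions. Regions were merged from peaks called per library, per the peak names beside each region, so that listing is not independent of the signal. Coordinates were read as 1-based, with both ends included. The inputs have no columns in this table, and enrichment over input was not analysed here.

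edgeR 4.0.16 in R 4.3.3 (quasi-likelihood, robust, TMM, filterByExpr) was fitted to all regions and 16 libraries of each antibody with 4 groups. It kept 4968 GR and 14553 pCREB regions, among them all 3 GR and 8 pCREB regions of the windows. Benjamini-Hochberg adjustment ran over all tested regions, and an adjusted p under 0.05 was called. Contrasts were the corticosterone effect averaged over training, the training effect averaged over treatment, and their interaction; effects within each training state were added after the values were seen. Each standard error was the fold change over the root of its F statistic. Alternatives used DESeq2 1.42.0, other scalings, no filter, no mitochondrial regions, a replicate block and left-out libraries. Counting intervals used scipy 1.17.1.

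Values in all libraries were given for the region with the highest CPM per kb of each window and antibody and for the smallest p of each contrast. A list of 40 further CREB target genes was fixed but not used, because it needs gene models of rn6. The members and lists were chosen with earlier results of these data known. Replicates are separate pools of rats.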

Additional observations from a re-analysis of the deposited data

Results flagged for a closer look

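Among 44 groups of 4 libraries (11 regions by 4 conditions), 2 had a library that lay far from the other 3, where chance flags about 1 group in 20. At Nr4a1 GR region 1, trained vehicle D stood at 163 CPM on 15 reads against 105 to 111 CPM in the other 3 libraries, a gap of 0.888 of the group's range, above Dixon's critical value for 4 samples. At Nr4a1 pCREB region 5, untrained corticosterone A stood at 45.9 CPM on 25 reads against 30.5 to 33.1 CPM, a gap of 0.835 of the range.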

How the results depend on the processing

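For GR the number of regions of the windows called for corticosterone, 0 with all libraries, was 1 with scaling by total count, with DESeq2, with a replicate block and without the 3 GR libraries with the fewest peak calls, and 0 to 1 without a single library. The region was Fos GR region 2 each time. The cause was not tested. With the replicate letter as a block its log2 fold change was 1.24 (adjusted p 0.00588 by edgeR), and 125 GR regions were called in all, against 83. The labels do not state that libraries of different conditions are paired by letter. Same-letter libraries of different conditions correlated at -0.2 to 0.49 for GR (median 0.07, 11 of 24 above 0.1). For pCREB they correlated at -0.34 to 0.51 (median 0.12, 13 of 24 above 0.1). Between libraries of different letters and conditions the median was -0.06 for either antibody. The best match in another condition had the same letter in 23 of 48 cases for GR and 20 of 48 for pCREB. In each case 1 of 4 candidate libraries bore that letter. Whether same-letter libraries share a factor was not tested. The other counts of called regions in the windows stayed at 0 in all alternatives. Of 35 log2 fold changes recomputed, 13 changed sign in some alternative, each with a main estimate between -0.17 and 0.29 and no call. With scaling by total count the corticosterone estimates of Fos pCREB region 2 and Nr4a1 pCREB regions 4 and 5 became 0.02, 0.00097 and 0.0011, and the interactions of Fos pCREB region 2 and Nr4a1 pCREB region 2 became 0.06 and 0.04. With the block these interactions were 0.04 and 0.05. Without the 2 pCREB libraries with the fewest peak calls the training and interaction estimates of Fos pCREB region 2 were -0.0027 and 0.09. The interaction of Nr4a1 pCREB region 4 was -0.02 with DESeq2's size factors, -0.06 with DESeq2, -0.01 without mitochondrial regions and -0.04 with the block.

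Leaving out 1 library at a time gave corticosterone estimates of -0.03 to 0.3 at Fos GR region 1, -0.19 to 0.09 at Fos pCREB region 2, and -0.06 to 0.11, -0.2 to 0.12 and -0.26 to 0.01 at Nr4a1 pCREB regions 1, 4 and 5. Training estimates were -0.27 to 0.02 at Fos GR region 1, -0.03 to 0.32 at Fos pCREB region 2, and -0.07 to 0.24 and -0.11 to 0.24 at Nr4a1 pCREB regions 2 and 3. Interactions were -0.34 to 0.35 and -0.1 to 0.45 at Fos pCREB regions 2 and 3, and -0.23 to 0.32 and -0.3 to 0.42 at Nr4a1 pCREB regions 2 and 4. The share of all GR regions called for corticosterone depends on the libraries too: between 53 and 335 were called over all alternatives. Depth limits the regions with under 20 reads per library, and 1 read in the shallowest GR library equalled 23.7 CPM.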
